A study of Mus musculus with 27 samples.

Results

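The methionine cycle, its betaine branch and the enzymes that feed or drain it were followed through 10 genes in mouse liver: Mat1a, Gnmt, Pemt, Ahcy, Bhmt, Bhmt2, Chdh, Cbs, Cth and Shmt1. The genes were taken from a list of names drawn up with earlier results of these data known, and all 10 were found among the 51826 genes listed. Whole livers came from wild-type BALB/C mice, an inbred strain, and RNA was read by bulk sequencing with 1 library for each of 27 animals. Mice were bred at an age of 10 to 12 weeks, litter sizes were evened out, and dams nursed for 10 to 14 days before their pups were taken off to synchronise involution. Age-matched animals formed 7 stages. NUL held 4 nulliparous mice, which had not been pregnant, and LAC held 3 mice on day 10 of lactation. ID2, ID4, ID6 and ID8 held 3, 4, 6 and 3 mice killed 2, 4, 6 and 8 days past weaning, and REG held 4 mice at 4 weeks past weaning, which the labels call regressed. All groups share the strain and the tissue, none carries a transgene, and the labels give neither time of day nor feeding at collection. In whole-liver RNA, fewer cells of a type and less RNA per cell cannot be told apart.

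As background, the liver makes S-adenosylmethionine, the methyl donor of most methylation reactions, from methionine. Transfer of the methyl group leaves S-adenosylhomocysteine and then homocysteine, which is either methylated back to methionine, in liver partly with betaine made from choline, or passed into cysteine. Folate carries the one-carbon units that serve the other route back to methionine.

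Expected counts, the authors' estimates of reads per gene, summed to between 41120650 and 75664540 per library, the smallest being an ID8 library and the largest an ID6 library. Hepatocyte markers were high in every library, with 6 markers summing to between 83100 and 222000 CPM (counts scaled to 1 common total of the TMM-adjusted libraries), from 178000 to 222000 in LAC and from 91000 to 118000 in NUL. Of these 6 markers only Alb differed at an edgeR adjusted p under 0.05 between LAC and NUL, and between ID2 and LAC. Alb was higher in LAC both times. The pericentral hepatocyte list summed to 3420 to 4100 CPM in LAC and 5550 to 8210 CPM in NUL. The Kupffer cell and macrophage list summed to 205 to 294 CPM in LAC, 311 to 396 in NUL, 540 to 604 in ID4 and 421 to 691 in ID6. Pancreas acinar genes summed to 1280 CPM in 1 ID2 library and to at most 91.7 CPM in the libraries of the other 6 stages, and hemoglobin and other erythroid genes to 19.9 to 35.0 CPM in ID8, 53.1 to 264 in ID6, 407 to 1030 in ID4 and 335 to 712 in NUL. A score of circadian clock genes (day-phase minus night-phase genes, in SD units) ran from 1.43 to 5.19 in ID2, -2.09 to -0.06 in NUL, -1.85 to -0.64 in ID6 and 0.158 to 1.58 in ID8. Animals whose title number was under 200 made up all of ID8, 2 of 3 in ID2, 2 of 4 in ID4 and none of the other stages; the labels do not say what the numbers stand for. The part of these differences in the results was not tested, except where a fit that holds the clock score or the title number class constant is given.

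Across the 7 stages, 7 of the 10 genes differed at an adjusted p under 0.05 (joint F test, edgeR quasi-likelihood), against 27% of all 16428 genes tested. They were Bhmt, Bhmt2, Gnmt, Mat1a, Cth, Chdh and Shmt1. Ahcy (adjusted p = 0.139), Cbs (0.0561) and Pemt (0.889) did not pass. Bhmt had the widest range, with its highest library at 10.9 times its lowest, and Shmt1 and Pemt the narrowest at 1.42 times. ID2 had the highest mean for Bhmt, Bhmt2, Mat1a, Cbs and Cth, and ID6 the lowest for Bhmt, Bhmt2, Gnmt, Mat1a, Cth and Chdh.

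**Figure D1:**
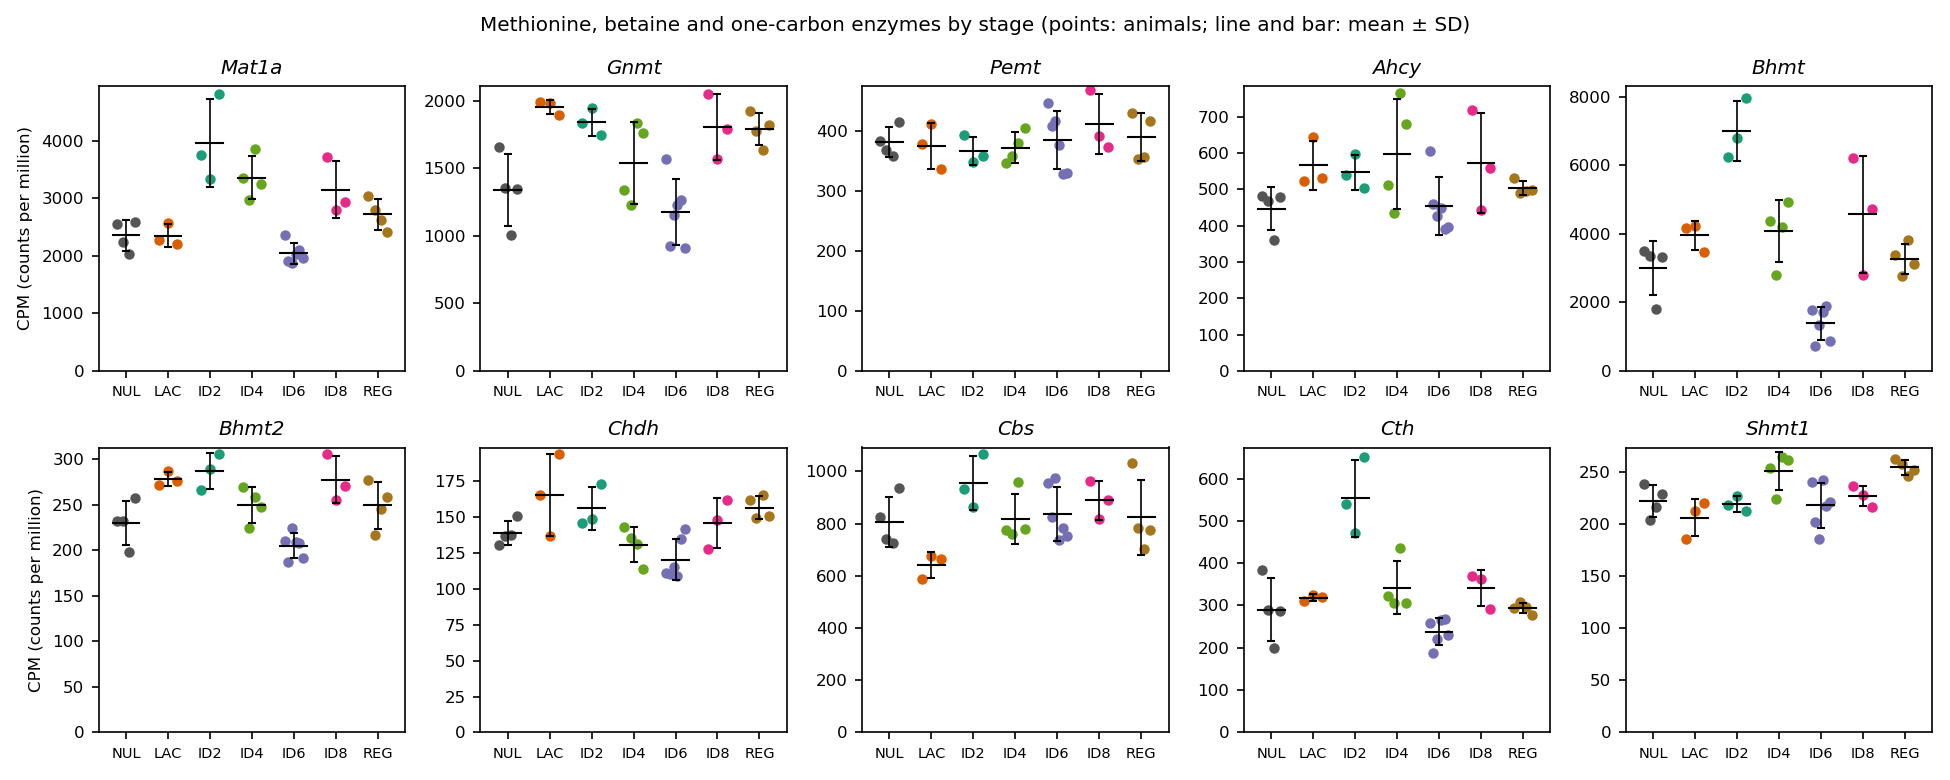
CPM of the 10 genes (vertical axes, linear, from 0) by stage (horizontal axes), with 1 point per animal and the mean ± SD of each stage as line and bar. Bhmt averaged 6994 CPM in ID2 and 1388 CPM in ID6, while Pemt stage means lay between 366 and 411 CPM.

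On the deposited scale that corrects for gene length (TPM), averaged over all libraries, the order was Gnmt (2412), Bhmt (1873), Mat1a (1107), Pemt (615), Cbs (584), Ahcy (273), Cth (248.8), Shmt1 (140), Bhmt2 (133) and Chdh (31.6). The place of Ahcy depends on the division of reads with Gm4737, a near-identical gene. Gm4737 was assigned 67.6% to 70.9% of the counts of Ahcy and its copies. Library ranges of neighbours in this order were separate at 2 steps: Mat1a (763 to 1871 TPM) lay above Pemt (537 to 714 TPM), and Bhmt2 (108 to 161 TPM) above Chdh (23.8 to 42.8 TPM). All other neighbours overlapped across libraries. Bhmt and Bhmt2 therefore stood at different levels while lying next to each other on chromosome 13.

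Bhmt (ENSMUSG00000074768, betaine-homocysteine methyltransferase) returns homocysteine to methionine with betaine as the methyl donor, and Bhmt2 (ENSMUSG00000042118) is its neighbour, which uses S-methylmethionine. In the GENCODE M21 annotation on GRCm38 the genes lie on the minus strand of chromosome 13, Bhmt at 93616675 to 93637961 and Bhmt2 at 93655720 to 93674302. The promoter windows of Bhmt, Bhmt2 and Gnmt are shown because Bhmt and its neighbour differed in the size of their changes and Gnmt varied with Bhmt between libraries. Each holds the 250 bases before the RefSeq start (GRCm38.p6), 5′ to 3′ on the gene's strand, Bhmt at chr13:93637759-93638008, Bhmt2 at chr13:93674303-93674552 and Gnmt at chr17:46729166-46729415, all minus. Capitals mark matches to AGGTCA on either strand, a half-site bound by many nuclear receptors.
Bhmt: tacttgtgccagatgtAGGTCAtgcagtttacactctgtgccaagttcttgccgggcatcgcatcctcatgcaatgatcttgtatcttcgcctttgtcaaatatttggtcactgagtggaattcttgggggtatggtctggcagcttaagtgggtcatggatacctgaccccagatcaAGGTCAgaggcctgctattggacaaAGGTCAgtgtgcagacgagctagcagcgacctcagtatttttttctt
Bhmt2: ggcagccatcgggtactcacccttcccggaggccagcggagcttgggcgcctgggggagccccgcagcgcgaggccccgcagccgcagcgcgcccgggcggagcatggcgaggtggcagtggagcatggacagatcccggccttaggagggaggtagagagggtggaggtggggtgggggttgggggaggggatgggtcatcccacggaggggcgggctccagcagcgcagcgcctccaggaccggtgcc
Gnmt: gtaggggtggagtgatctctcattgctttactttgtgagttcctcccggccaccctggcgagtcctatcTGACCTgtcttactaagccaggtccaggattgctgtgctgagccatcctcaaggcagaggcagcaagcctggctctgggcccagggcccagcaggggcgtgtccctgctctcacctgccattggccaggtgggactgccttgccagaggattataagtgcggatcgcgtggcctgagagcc
The Bhmt window held 3 matches, at positions -234, -72 and -47 from the start, the Gnmt window 1 at -181 and the Bhmt2 window 0. Of all 32851 RefSeq promoter windows of that length 14.02% held at least 1 match and 0.13% held 3 or more. The windows also differed in base composition, with 48% G and C for Bhmt, 60.4% for Gnmt and 74% for Bhmt2. RefSeq starts Bhmt inside the GENCODE gene, so most of its window, with the matches at -72 and -47, lies within that gene model. Only the match at -234 lies before the GENCODE start. CACGTG (6.02% of all windows), TTATGTAA (0.82%) and TGTTCT (16.08%) were searched on both strands too and were not in these 3 windows; among the other genes with a window, CACGTG occurred in that of Cbs, TGTTCT in 1 of Chdh and AGGTCA in that of Ahcy. Motifs were chosen with the expression values known, and a match describes letters only. Mat1a and Cth are named without a window.

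In NUL, Bhmt stood at 3492, 3339, 1813 and 3317 CPM, and in LAC at 4171, 4240 and 3472 CPM. In ID2 the 3 libraries had 6243, 6789 and 7950 CPM, and in ID4 the 4 libraries had 4381, 2806, 4185 and 4921 CPM. The ID2 libraries lay above every library of NUL, LAC and ID4, and 1 NUL library stood far below the other 3. In ID6 the lowest, median and highest of 6 libraries were 729, 1530 and 1884 CPM. ID8 gave 6210, 2796 and 4711 CPM, and REG gave 3372, 2755, 3812 and 3132 CPM. Every ID6 library lay below every ID4, ID8 and REG library, and ID6 overlapped NUL only through the low NUL library.

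Bhmt was thus 2.34-fold higher in ID2 than in NUL (log2 fold change 1.23 ± 0.30 SE, edgeR adjusted p = 0.0236), and it fell 2.94-fold from ID4 to ID6 (-1.55 ± 0.25, adjusted p = 0.000673). From ID6 to ID8 it rose 3.29-fold (1.72 ± 0.27, adjusted p = 0.00149), and ID6 was lower than NUL (-1.11 ± 0.25, adjusted p = 0.0237). The step from LAC to ID2, 0.82 ± 0.32 on the log2 scale, did not pass (adjusted p = 0.0862), nor did that from ID2 to ID4 (-0.78 ± 0.30, adjusted p = 0.217). The fall from ID4 to ID6 passed in all 10 fits that left out 1 animal, with adjusted p at most 0.00365. The rise from ID6 to ID8 passed in all 9 such fits and was lost with the title number class held constant (log2 fold change 1.84, adjusted p = 0.102). The ID2 call against NUL was lost without NUL_226, ID2_31 or ID2_39 (adjusted p = 0.0749, 0.0652 and 0.13) and without a filter on low counts (0.0515). It was also lost with the clock score held constant (log2 fold change 1.32, adjusted p = 0.184) and with the title number class held constant (1.31, adjusted p = 0.115), where 2 of 3 ID2 animals and no NUL animal have numbers under 200. The ID6 call against NUL was lost without NUL_220, NUL_221, NUL_227 or ID6_216 (largest adjusted p 0.0899), without a filter on low counts (0.0509) and in a fit of only these groups (0.141).

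Bhmt2 also had its highest mean in ID2 and its lowest in ID6, over a smaller span. NUL libraries had 231.7, 232.4, 197 and 257 CPM, LAC 271, 287 and 276 CPM, and ID2 265.9, 289 and 305 CPM. ID4 gave 269.5, 223.7, 258 and 247 CPM and ID6 186 to 224.2 CPM with a median of 208, the 2 stages overlapping in a single pair of libraries with nearly equal values. ID8 gave 306, 255 and 270.1 CPM, all above ID6, and REG 277, 216.4, 245 and 258.5 CPM. Bhmt2 fell 1.22-fold from ID4 to ID6 (log2 fold change -0.29 ± 0.08, adjusted p = 0.0258) and rose 1.35-fold from ID6 to ID8 (0.44 ± 0.09, adjusted p = 0.00544). The fall was lost in 5 of 10 fits without 1 animal, those without ID4_13, ID4_211, ID4_215, ID6_209 or ID6_232 (largest adjusted p 0.107), on both TPM scales (log2 fold change -0.16), and with the clock score or the title number class held constant (adjusted p = 0.0886 and 0.111). The rise was lost without ID8_101b (0.0791) and with the title number class held constant (0.176). The ratio of Bhmt to Bhmt2 TPM shows the unequal size of the changes as a description: its lowest, median and highest values were 9.08, 13.4 and 14.9 in NUL, 23.2, 23.2 and 25.7 in ID2, and 3.86, 7.0 and 8.91 in ID6. ID2 libraries lay above all others in this ratio and ID6 libraries below all others. In ID8 it was 10.8, 17.2 and 20.1, and in REG 12.0, 12.3 and 15.4, ranges that overlapped NUL.

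**Figure D2:**
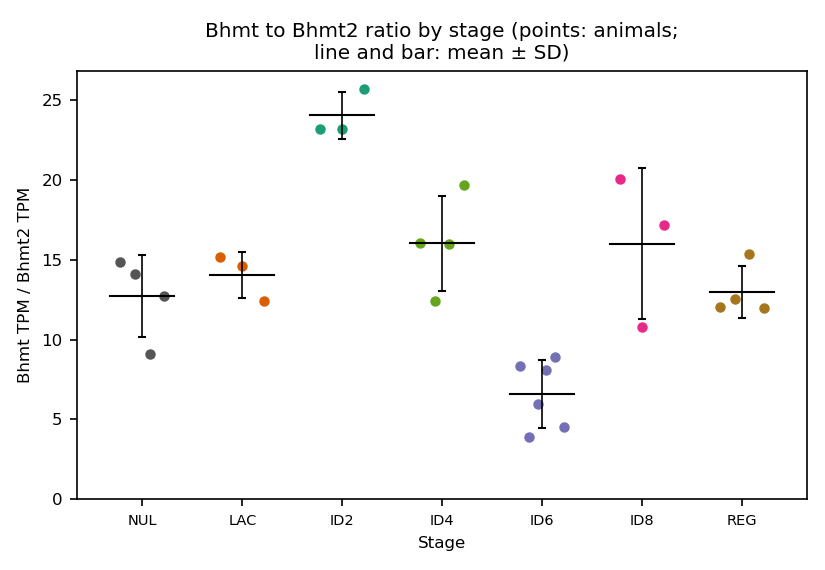
Ratio of Bhmt TPM to Bhmt2 TPM (vertical axis, linear, from 0) by stage (horizontal axis), with 1 point per animal and mean ± SD. The medians were 23.2 in ID2 and 7.0 in ID6, and libraries of the other 5 stages lay between the highest ID6 value of 8.91 and the lowest ID2 value.

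Reads of Bhmt could be shared with 2 annotated copies elsewhere in the genome, which together held 0.478% to 0.739% of the counts of the 3 genes, and its counts were fractional in all 27 libraries. Bhmt2 counts were whole in all of them. An antisense gene, Gm15622, overlaps Bhmt, and reads of the 2 cannot be told apart without strand, which is not given in the sources used here.

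Mat1a (ENSMUSG00000037798, chromosome 14, 41105035 to 41124412, plus strand) encodes the liver's methionine adenosyltransferase, which makes S-adenosylmethionine. Its CPM was 2557, 2239, 2025 and 2594 in NUL and 2270, 2578 and 2202 in LAC, which overlapped fully. ID2 had 3746, 3333 and 4804 CPM and ID4 3359, 2963, 3852 and 3247 CPM, both above every NUL and LAC library. ID6 ran from 1874 to 2369 CPM with a median of 2003, below every ID4 and ID8 library, while ID8 had 3717, 2792 and 2935 CPM and REG 3038, 2795, 2631 and 2410 CPM. Mat1a was higher in ID2 than in NUL (log2 fold change 0.75 ± 0.13, adjusted p = 0.0011) and than in LAC (0.75 ± 0.14, adjusted p = 0.000604), and higher in ID4 than in NUL (0.51 ± 0.12, adjusted p = 0.0118). It fell 1.64-fold from ID4 to ID6 (-0.71 ± 0.11, adjusted p = 0.000227) and rose 1.54-fold from ID6 to ID8 (0.62 ± 0.12, adjusted p = 0.00386). The fall to ID6 and the differences of ID2 from LAC and NUL passed in every fit without 1 animal. The ID2 difference from NUL did not pass with the clock score held constant (log2 fold change 0.54, adjusted p = 0.169), the ID4 difference from NUL was lost without NUL_226 or ID4_211 (0.0568 and 0.0557), and the ID8 rise without ID8_101b (0.0659) and with the title number class held constant (0.11).

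Gnmt (ENSMUSG00000002769, chromosome 17, 46725664 to 46729168, minus strand) encodes glycine N-methyltransferase, which uses up S-adenosylmethionine by methylating glycine. NUL libraries had 1657, 1350, 1005 and 1345 CPM, all below the LAC libraries at 1989, 1979 and 1890 CPM. ID2 had 1831, 1945 and 1743 CPM and ID4 1338, 1225, 1832 and 1763 CPM. ID6 ran from 913 to 1569 CPM with a median of 1190, overlapping ID8 (2051, 1566 and 1791 CPM) by a single library, and REG had 1925, 1774, 1635 and 1823 CPM. Gnmt was the one gene of the 10 called in lactation against NUL, 1.46-fold higher in LAC than in NUL (log2 fold change 0.54 ± 0.16, adjusted p = 0.0274). It rose 1.54-fold from ID6 to ID8 (0.62 ± 0.15, adjusted p = 0.018). The LAC call was lost without LAC_200, LAC_213, LAC_240 or NUL_226 (adjusted p = 0.0798, 0.0843, 0.0594 and 0.112) and on both TPM scales (log2 fold change 0.46), and the ID8 call without ID8_101b or ID8_98b (0.135 and 0.065), with the title number class held constant (0.102) and in a fit of only these groups (0.065). Over all settings the log2 fold change of ID8 against ID6 lay between 0.51 and 0.91.

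Pemt (ENSMUSG00000000301, chromosome 11, 59970614 to 60046489, minus strand) methylates phosphatidylethanolamine to phosphatidylcholine, another large use of S-adenosylmethionine in liver. Its libraries ran from 328 to 467.5 CPM, and every pair of stages compared overlapped. In none of the 11 comparisons did it pass, and its log2 fold changes lay between -0.08 (REG against ID8) and 0.11 ± 0.11 (ID8 against NUL). Chdh (ENSMUSG00000015970, chromosome 14, 30009023 to 30040527, plus strand) encodes choline dehydrogenase, which makes betaine aldehyde from choline. It passed the joint test (adjusted p = 0.00736) with stage means from 121 CPM in ID6 to 166 CPM in LAC, but none of the 11 pairwise comparisons. The ID2 libraries (146, 149 and 173 CPM) lay above the ID4 libraries (143, 135.5, 131 and 114 CPM), with a difference of ID4 from ID2 of -0.25 ± 0.11 on the log2 scale (adjusted p = 0.302). Counts of Chdh were fractional in all 27 libraries, so they depend on the division of shared reads. Of its 31-base stretches, 9.0% occur in Cacna1d on the opposite strand.

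Ahcy (ENSMUSG00000027597, chromosome 2, 155059310 to 155074497, minus strand) encodes the enzyme that splits S-adenosylhomocysteine into homocysteine and adenosine. Its values were 482, 467, 359.7 and 479 CPM in NUL and 524, 644 and 529.8 CPM in LAC. The ID2 values were 539.9, 598 and 503 CPM and the ID4 values 512, 434, 764 and 680.2 CPM. ID4 spanned much of the gene's range, its 2 libraries with title numbers under 200 at 434 and 512 CPM and the other 2 at 680.2 and 764 CPM. ID6 ran from 391.5 to 606 CPM with 1 library above the other 5, ID8 gave 717, 442 and 559 CPM, and REG 532, 489, 495 and 497 CPM. From ID4 to ID6 the log2 fold change was -0.40 ± 0.14 (adjusted p = 0.0806).

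Counts of Ahcy depend on how reads were divided with Gm4737, a gene on chromosome 16 (46152985 to 46155077, minus strand) annotated as protein coding, with which it shares 68.7% of its 31-base stretches. Gm4737 was assigned 67.6% to 70.9% of the counts of Ahcy and its copies in every library, and Ahcy 29.1% to 32.4%, so the split hardly varied between libraries. Gm4737 itself was lower in ID6 than in ID4 (log2 fold change -0.43 ± 0.12, adjusted p = 0.0283). With Ahcy and its 4 annotated copies summed, the ID4 to ID6 difference passed too (-0.42, adjusted p = 0.0393); it also passed with DESeq2 (-0.40, adjusted p = 0.039), with the title number class held constant (-0.55, adjusted p = 0.0358) and without ID4_15 or ID6_201 (0.0246 and 0.0207). Without ID4_211 it shrank to -0.24 (adjusted p = 0.324). ID4 against NUL was 0.42 ± 0.16 with all libraries (adjusted p = 0.13), 0.54 without ID4_15 (0.0465) and 0.28 without ID4_211 (0.38).

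**Figure D3:**
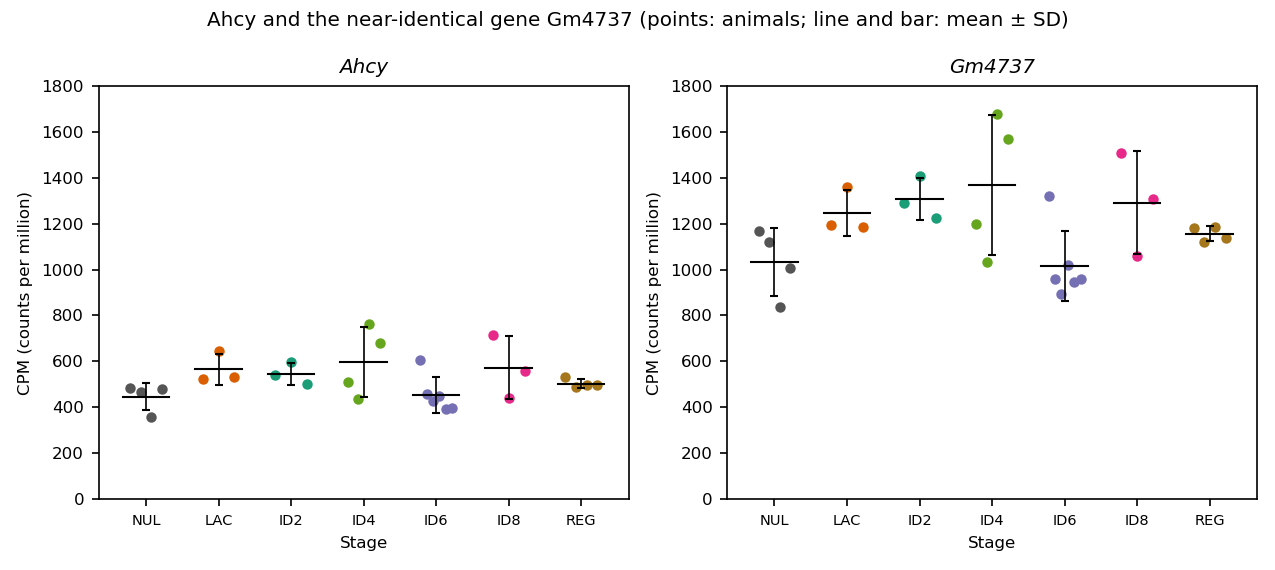
CPM of Ahcy (left panel) and Gm4737 (right panel) on the same linear vertical scale from 0, by stage, with 1 point per animal and mean ± SD. ID4 has the largest SD in both panels. Over all stages Gm4737 lies between 836 and 1679 CPM and Ahcy between 359.7 and 764 CPM.

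Cbs (ENSMUSG00000024039, chromosome 17, 31608894 to 31637238, minus strand) encodes cystathionine beta-synthase, which joins homocysteine to serine and so commits it to cysteine. LAC libraries were the lowest, at 586, 676 and 663 CPM, below NUL at 824.5, 739, 724 and 936 CPM. ID2 had 932, 864 and 1067 CPM, above every LAC library and overlapping NUL. Cbs was 1.49-fold higher in ID2 than in LAC (log2 fold change 0.57 ± 0.14, adjusted p = 0.00562), and LAC against NUL did not pass (-0.33 ± 0.13, adjusted p = 0.105). The other stages had means between 818 CPM (ID4) and 889 CPM (ID8). The ID2 rise passed in all 6 fits without 1 animal but not with the clock score held constant (0.34, adjusted p = 0.175).

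Cth (ENSMUSG00000028179, chromosome 3, 157894248 to 157925077, minus strand) encodes cystathionine gamma-lyase, the next step, which releases cysteine. NUL had 384, 289, 200.5 and 288 CPM and LAC 310.1, 325.5 and 319.7 CPM. ID2 had 539.7, 471 and 650.3 CPM, above every library of every other stage. ID4 had 322, 305, 435 and 305 CPM, ID6 between 187.5 and 269 CPM with a median near 244 CPM, ID8 369.8, 363 and 292 CPM, and REG 295, 308, 295 and 278 CPM. All ID6 libraries lay below all libraries of LAC, ID2, ID4, ID8 and REG. Cth was 1.91-fold higher in ID2 than in NUL (log2 fold change 0.93 ± 0.16, adjusted p = 0.00104) and 1.74-fold higher than in LAC (0.80 ± 0.17, adjusted p = 0.0023). It fell from ID2 to ID4 (-0.70 ± 0.16, adjusted p = 0.0188) and from ID4 to ID6 (-0.52 ± 0.13, adjusted p = 0.0148) and rose from ID6 to ID8 (0.52 ± 0.14, adjusted p = 0.0382). The ID2 difference from LAC passed in every fit without 1 animal, and that from NUL did not pass with the clock score held constant (0.82, adjusted p = 0.112). The fall from ID2 to ID4 was lost without ID2_39, ID4_13, ID4_15 or ID4_215 (largest adjusted p 0.163), and with the clock score or the number of sequencing runs held constant (0.132 and 0.0687). That from ID4 to ID6 was lost without ID4_211 (0.0891), with the clock score held constant (0.0517) and on both TPM scales (0.0733 and 0.0711). The rise to ID8 was lost in 6 of 9 fits without 1 animal, those without ID6_209, ID6_216, ID6_232, ID8_14, ID8_98b or ID8_101b (largest adjusted p 0.182), and with the clock score, the title number class or the number of runs held constant, on both TPM scales and without a filter.

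Shmt1 (ENSMUSG00000020534, chromosome 11, 60788104 to 60811718, minus strand) encodes cytosolic serine hydroxymethyltransferase, which moves a one-carbon unit from serine to folate. It passed the joint test (adjusted p = 0.0411) over stage means from 206 CPM in LAC to 254 CPM in REG and none of the pairwise comparisons. REG libraries (262, 257, 245 and 252 CPM) all lay above the NUL libraries (238, 203.5, 216.4 and 229 CPM), with a log2 fold change of 0.20 ± 0.08 and adjusted p = 0.58.

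Counted by comparison, 1 of the 10 genes was called in LAC against NUL (Gnmt, higher), against 11.2% of all genes tested, 5.19% higher and 6% lower. In ID2 against LAC, 3 were called, all higher (Mat1a, Cbs and Cth), against 16.1% of all genes, 8.48% higher and 7.64% lower. In ID2 against NUL, 3 were called, all higher (Bhmt, Mat1a and Cth), against 3.24% of all genes, 2.32% higher and 0.919% lower. The median log2 fold change of the 10 was 0.31 in ID2 against NUL, 0.19 in LAC against NUL and 0.07 in ID2 against LAC, where the medians of all genes were -0.02, -0.01 and 0.02. With the clock score held constant, 0 of the 10 passed in ID2 against NUL, and 42 of all 16428 genes (0.256%).

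In ID4 against ID2, 1 gene was called, Cth, lower, against 1.49% of all genes, and in ID4 against NUL, 1 was called, Mat1a, higher, against 4.25% of all genes, 2.64% higher and 1.61% lower. In ID6 against ID4, 4 were called, all lower (Bhmt, Bhmt2, Mat1a and Cth), against 8.53% of all genes, 3.89% higher and 4.64% lower. The median of the 10 was -0.34 and that of all genes 0.01, and without ID4_211 the count was 2. In ID6 against NUL, 1 was called, Bhmt, lower, against 1.08% of all genes.

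In ID8 against ID6, 5 were called, all higher (Bhmt, Bhmt2, Gnmt, Mat1a and Cth), against 4.12% of all genes, 2.37% higher and 1.75% lower, with a median of 0.39 against 0.00 for all genes. Without ID8_101b the count was 1, without ID8_98b 3, and with the title number class held constant 0, at log2 fold changes of 1.84 for Bhmt and 0.68 for Mat1a (adjusted p = 0.102 and 0.11). That fit called 6 of all 16428 genes (0.037%). All ID8 animals have title numbers under 200 and no ID6 animal does, so that fit rests on the ID2 and ID4 libraries for the effect of the number. Within ID4 the animals numbered under 200 and the others did not overlap in 6 of the 10 genes, against 38.8% of all genes. In the comparisons ID8 against NUL and REG against NUL 0 were called with edgeR, against 0.499% and 0.0852% of all genes, with 4 and 2 genes at an unadjusted p under 0.05 against 2105 and 1178 of all 16428 genes. In REG against ID8, 0 were called against 0.0487% of all genes, and 0 had an unadjusted p under 0.05. DESeq2 called 0 in these 3 comparisons as well. Comparisons that share a stage share its libraries.

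**Figure D4:**
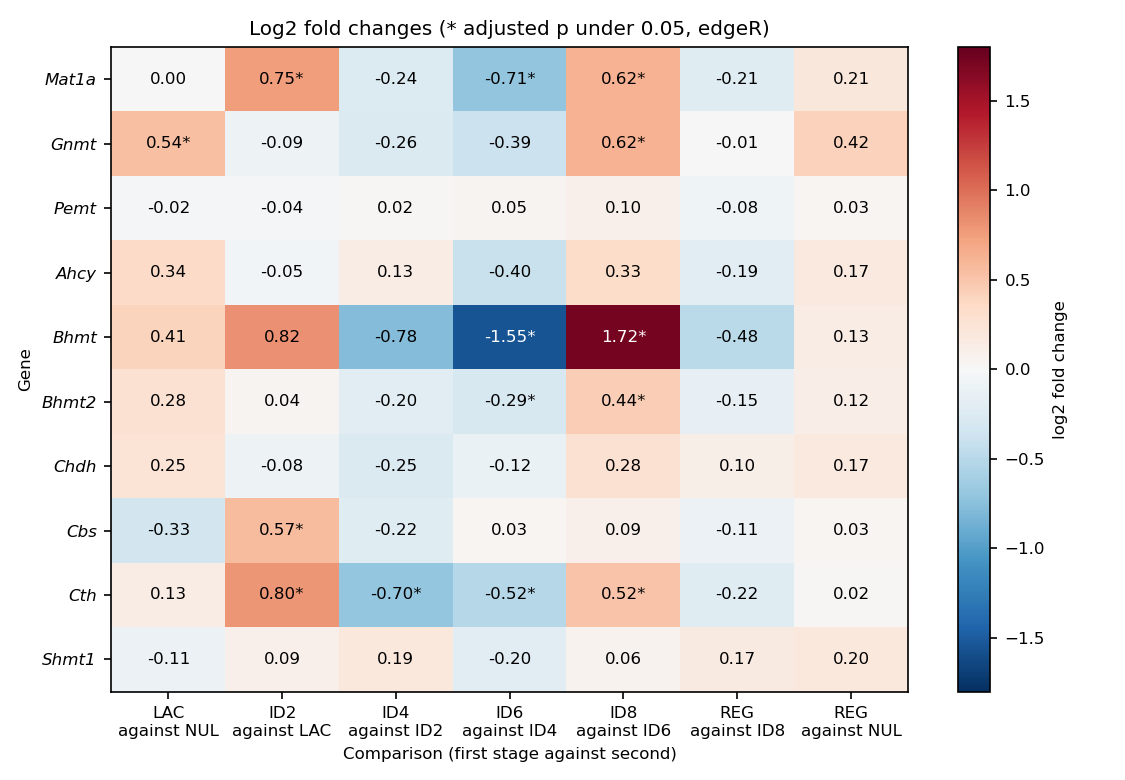
Log2 fold changes (colour scale and printed values) of the 10 genes (vertical axis) in 7 comparisons between stages (horizontal axis), with a star at edgeR adjusted p under 0.05. The Bhmt values of -1.55 (ID6 against ID4) and 1.72 (ID8 against ID6) are the largest in size.

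Between libraries, Bhmt varied most closely with Bhmt2 (Pearson r = 0.888 of log2 CPM over 27 libraries) and with Cth (0.828), Gnmt (0.824) and Mat1a (0.821), and Mat1a with Cth (0.854). After subtraction of stage means, r was 0.716 for Bhmt and Bhmt2, 0.791 for Bhmt and Gnmt, 0.785 for Gnmt and Ahcy and 0.698 for Mat1a and Cth. These values are descriptions over libraries that share depth and scaling. Pemt and Chdh ran opposite to each other within stages (-0.677). Of all other genes with an average log2 CPM of 1 or more, those closest to Bhmt over the 27 libraries were Cyp8b1 (0.932), the sterol 12-alpha-hydroxylase of bile acid synthesis, Cmbl (0.916) and Aass (0.91), which starts lysine breakdown. Aass was also closest to Cth (0.944), Mpst, a sulfurtransferase, to Bhmt2 (0.92), Mccc2, of leucine breakdown, to Mat1a (0.894), and Sult1a1, a sulfotransferase, to Gnmt (0.892). For the remaining genes the closest were Pfdn1 for Pemt (0.901), Anapc2 for Cbs (0.837), Hsd17b10 for Ahcy (0.832), Ablim1 for Chdh (0.812) and Ndfip1 for Shmt1 (0.765). Genes with placeholder symbols were left out of this ranking, and with them Gm4737, which shares reads with Ahcy, and a near-identical copy of Bhmt.

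The wider pathway was followed in 7 lists of 79 other genes, of which 78 were tested. The joint test called 46 of the 78, against 27% of all genes tested. In LAC against NUL 10 were higher and 4 lower, against 5.19% and 6% of all genes, among them Agxt, which turns glyoxylate into glycine and fell from 507 ± 66.1 CPM (SD, n = 4) to 307 ± 11.5 CPM (n = 3; log2 fold change -0.72 ± 0.12, adjusted p = 0.000303). Sds, which breaks down serine, was lower (208 ± 28.6 to 135 ± 3.43 CPM, adjusted p = 0.0285), as was Gatm, of creatine synthesis (20.8 ± 4.40 to 13.1 ± 1.78 CPM, adjusted p = 0.0257). Higher in LAC were As3mt, an arsenic methyltransferase (32.6 ± 6.93 to 51.5 ± 2.87 CPM, adjusted p = 0.0061), Chka, choline kinase (63.9 ± 8.49 to 96.3 ± 12.3 CPM, adjusted p = 0.0337), and Gss, glutathione synthetase (61.8 ± 4.82 to 92.4 ± 9.85 CPM, adjusted p = 0.00912). On log2(TPM + 1) with limma, 4 pathway genes were higher and 5 lower in this comparison. The 14 calls became 4 without LAC_213 and 8 without LAC_200 or LAC_240; the Gss call was lost without LAC_240, and those of Chka, Gatm and Sds in 6, 5 and 5 of 7 fits without 1 animal.

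In ID2 against LAC 16 of the 78 were higher and 13 lower, against 8.48% and 7.64% of all genes. Agxt rose to 857 ± 12.4 CPM (n = 3; log2 fold change 1.48 ± 0.13, adjusted p = 1.17e-07), Sds to 328 ± 57.8 CPM (1.28 ± 0.20, adjusted p = 0.000129) and Nnmt, which methylates nicotinamide, from 26.4 ± 7.74 to 114 ± 61.8 CPM (2.11 ± 0.54, adjusted p = 0.0117). Chka fell to 42.3 ± 9.64 CPM (-1.19 ± 0.20, adjusted p = 0.000315), Amd1, the S-adenosylmethionine decarboxylase of polyamine synthesis, from 45.4 ± 12.7 to 22.8 ± 1.48 CPM (adjusted p = 0.000173), and Csad, of taurine synthesis, from 161 ± 33.8 to 58.1 ± 25.1 CPM (adjusted p = 0.0471). The Nnmt call was lost without ID2_39, with the clock score held constant and in a fit of only these groups. Csad no longer passed in 5 of 6 leave-one-animal-out fits, with the clock score, the title number class or the number of runs held constant, without a filter and in a fit of only these groups. Of the folate one-carbon list 5 of 21 were higher and 0 lower, 2 with the title number class held constant, and 3 with the clock score held constant or without a filter on low counts. Of the choline, betaine and phosphatidylcholine list 1 of 13 was higher and 5 lower, but 2 were higher and 1 lower on log2(TPM + 1) and with the clock score held constant. The 29 calls became 14 without ID2_39, 16 without LAC_213, 18 without ID2_31 and 19 without LAC_200. They became 17 with the clock score held constant (10.2% of all genes) and 17 with the title number class held constant (7.6%). Without a filter 7.88% of all genes were called. Log2(TPM + 1) gave 15 higher and 6 lower.

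Against NUL, 12 of the 78 were higher in ID2 and 2 lower, against 2.32% and 0.919% of all genes. Got1, a cytosolic aspartate aminotransferase that also acts on cysteine products, was at 738 ± 43.4 CPM against 382 ± 55.5 (log2 fold change 0.95 ± 0.14, adjusted p = 0.000252), Aldh1l1, a folate dehydrogenase, at 2148 ± 200.9 against 1245 ± 274 CPM (0.79 ± 0.17, adjusted p = 0.00907), and Agxt was higher too (0.76 ± 0.12, adjusted p = 0.00053). Gclc, of glutathione synthesis, was lower at 182 ± 34.9 against 283 ± 34.3 CPM (-0.64 ± 0.18, adjusted p = 0.0417). On log2(TPM + 1) 9 were higher and 4 lower. The 14 calls became 6 without ID2_39 and 9 without ID2_31 or NUL_226. They became 6 with the title number class held constant (0.657% of all genes) and 0 with the clock score held constant (0.256%). Aldh1l1 was lost without ID2_39 and with either of these held constant, and Gclc in 5 of 7 fits without 1 animal and with either held constant. The periportal hepatocyte list, which holds Sds as well, summed to 8420 to 9560 CPM in ID2, 5160 to 6020 in NUL and 4670 to 5370 in LAC.

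In ID4 against ID2 2 were higher (Chka and Mat2a, the methionine adenosyltransferase found outside liver and in growing liver) and 2 lower (Got1 and Gcat, of threonine breakdown), against 1.49% of all genes called. Mat2a rose from 34.2 ± 1.61 to 48.9 ± 4.12 CPM (0.52 ± 0.12, adjusted p = 0.0263), opposite in sign to the Mat1a difference of -0.24 ± 0.13, which did not pass (adjusted p = 0.42). The Mat2a call was lost on both TPM scales and in 5 of 7 fits without 1 animal, and those of Chka and Gcat in 4. Mat2a, Chka and Gcat were each lost with the clock score or the number of sequencing runs held constant. Chka was also lost on log2(TPM + 1), without a filter and in a fit of only these groups. All 4 calls in this comparison together became 1 without ID2_31 or ID2_39 and with the number of runs held constant (0.937% of all genes). They became 0 with the clock score held constant (0.59% of all genes). Without ID4_13 and on log2(TPM + 1) 2 passed, and 7 in a fit of only these groups (2.87% of all genes). Against NUL, ID4 had 7 of the 78 higher and 1 lower, against 2.64% and 1.61% of all genes, with Sardh, which demethylates sarcosine, the product of Gnmt, at 1025 ± 187 against 679 ± 112 CPM (0.59 ± 0.13, adjusted p = 0.00557). Pcyt2, of phosphatidylethanolamine synthesis, was lower at 264 ± 40.4 against 367 ± 42.3 CPM (adjusted p = 0.0043), and Cdo1, cysteine dioxygenase, higher at 1480 ± 95.02 against 1128 ± 167 CPM (adjusted p = 0.0348). The 8 calls became 2 to 5 in 6 of 8 fits without 1 animal, those without ID4_13, ID4_211, ID4_215, NUL_221, NUL_226 or NUL_227, 5 without a filter on low counts and 3 on log2(TPM + 1). Cdo1 no longer passed in 6 of these 8 fits, on both TPM scales, with the clock score held constant and in a fit of only these groups.

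In ID6 against ID4 7 of the 78 were higher and 13 lower, against 3.89% and 4.64% of all genes. On log2(TPM + 1) 11 were higher and 5 lower, so the balance of directions turned on that scale, where the test changed too. It did not turn with the other scalings of the counts, which gave 6 and 13, and 7 and 12. The genes named here kept their sign under every alternative run. Sardh fell to 607 ± 89.5 CPM (n = 6; -0.76 ± 0.11, adjusted p = 0.000227), Agxt from 685 ± 44.4 to 403 ± 57.5 CPM (-0.76 ± 0.10, adjusted p = 7.13e-05) and Nnmt from 60.6 ± 26.6 to 18.8 ± 7.37 CPM (adjusted p = 0.014). Amd1 rose from 24.1 ± 1.01 to 41.8 ± 8.68 CPM (0.80 ± 0.13, adjusted p = 0.000516), Pcyt2 to 353 ± 21.9 CPM (adjusted p = 0.00456) and Slc44a1, a choline transporter, from 42.4 ± 3.35 to 55.7 ± 5.53 CPM (adjusted p = 0.0252). The 20 calls became 13 without ID4_13 or ID4_215. They were also 13 with the title number class held constant, where 4.07% of all genes were called. The Nnmt call was lost without ID4_211. That of Slc44a1 was lost without ID4_13, ID4_215 or ID6_230, and with the clock score or the title number class held constant. Against NUL, where 1.08% of all genes were called, ID6 had 1 higher, Hnmt, a histamine methyltransferase, and 1 lower, Suox, sulfite oxidase (101.3 ± 9.50 against 133 ± 7.82 CPM, adjusted p = 0.00109). The Hnmt call was lost without NUL_226 or NUL_227.

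In ID8 against ID6 11 of the 78 were higher and 2 lower, against 2.37% and 1.75% of all genes, and on log2(TPM + 1) 4 were higher and 8 lower. Suox rose to 142 ± 2.85 CPM (n = 3; 0.48 ± 0.07, adjusted p = 0.000521), Got1 from 360 ± 53.6 to 576 ± 139 CPM (0.68 ± 0.13, adjusted p = 0.00376) and Nnmt to 59.6 ± 34.4 CPM (adjusted p = 0.0352), and Amd1 fell to 26.5 ± 1.09 CPM (-0.66 ± 0.14, adjusted p = 0.00937). The Nnmt call was lost without ID6_209, ID6_218, ID6_232, ID8_98b or ID8_101b, and also with the clock score, the title number class or the number of runs held constant, without a filter and in a fit of only these groups. The Amd1 call was lost without ID8_98b or ID8_101b and the Got1 call without ID8_101b. Without ID8_101b 1 of the 78 passed, without ID8_98b 2, without ID6_209 5 and without ID6_232 7. With the title number class held constant 0 passed, where 0.037% of all genes were called. In a fit of only these groups 5 passed (1.98% of all genes). With the number of runs held constant or without a filter 8 passed (2.83% and 1.83% of all genes). ID8 had 2 of the 78 higher than NUL (Hnmt and Got1), where 0.499% of all genes were called, calls lost in 3 and 5 of 7 fits without 1 animal. Both were lost with the title number class held constant, on both TPM scales and in a fit of only these groups. Got1 was also lost with either the clock score or the number of runs held constant and with both other scalings of the libraries. In REG against NUL and against ID8 edgeR called 0 of the 78, with 15 and 8 at an unadjusted p under 0.05 against 1178 and 1481 of all 16428 genes, and DESeq2 called 1 and 0. Counts of Amd1 and Mat2a were fractional in all 27 libraries, of Sds in 26 and of Aldh1l1 in 24, so they depend on the division of shared reads.

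**Figure D5:**
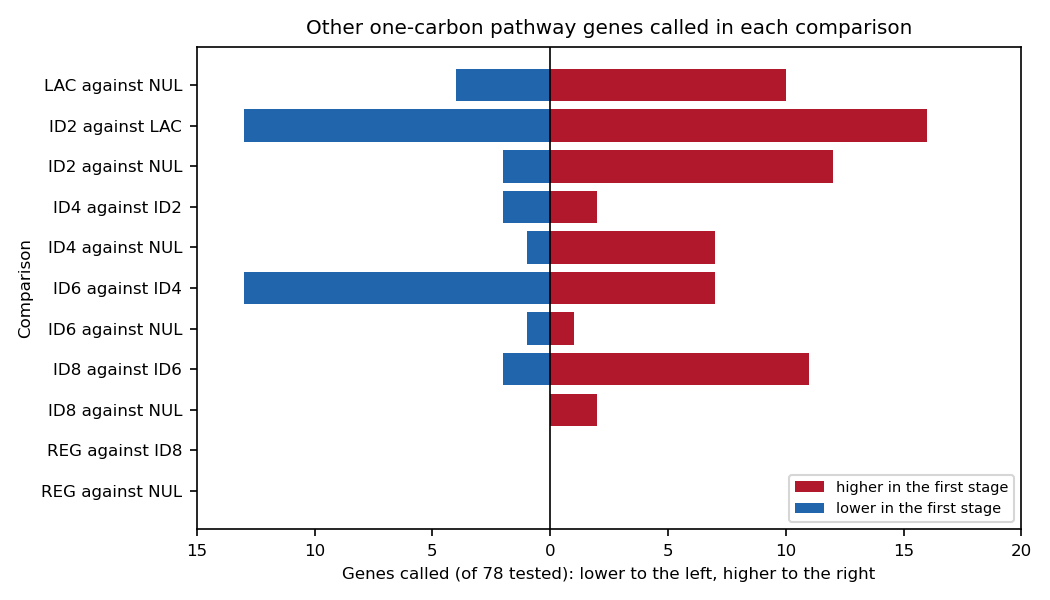
Number of the 78 tested pathway genes called higher (bars to the right) or lower (bars to the left) in the first stage of each comparison, on edgeR counts. ID6 against ID4 shows 7 higher and 13 lower and ID8 against ID6 11 higher and 2 lower, where log2(TPM + 1) gave 11 and 5, and 4 and 8.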

How the data were processed

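Bulk RNA sequencing libraries of 27 livers were analysed from per-gene tables. Reads were aligned with STAR 2.6.1a and quantified with RSEM 1.3.1 on mm10 (GRCm38), per the submitters' processing notes; the roles are those of the tools. The expected count is the authors' estimate of reads per gene, not normalised, and TPM is the authors' length-scaled value, both per the file headers; the deposited effective length was not tested. The gene annotation release and strand use are not given in the sources used here. Of 51826 identifiers 51633 matched GENCODE M21, from which symbols and positions come.

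Expected counts were rounded and fitted in R 4.3.3 with edgeR 4.0.16 (filterByExpr, TMM, glmQLFit with robust estimation, glmQLFTest; 16428 genes, 27 libraries, 7 groups, 1 shared spread), with Benjamini-Hochberg adjustment over all genes in each of 11 comparisons and a joint test; a gene was called at adjusted p under 0.05, and the SE is the log2 fold change divided by the root of F. CPM uses TMM-scaled totals. Alternatives used DESeq2 1.42.0, limma 3.58.1 on log2(TPM + 1) and log2(TPM + 0.1), other scalings and filters, covariates and each animal left out. The 2 sums with near-identical copies were added after the data had been seen. The statistics were tested on simulated data. The members and lists were chosen with earlier results of these data known. Named pathway genes are, per comparison and direction, up to 3 called genes whose log2 CPM averages 1 or more, with no overlap between groups and the largest fold changes (1 such gene is not reported here); the genes of like pattern are up to 3 per member by Pearson r, of which the text gives the closest. Replicates are separate animals per the labels, and no pair of libraries in a group was near sampling noise (smallest chi-square per gene 41.3). Intervals are not given for counts, and precision comes from the spread between animals.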

Additional observations from a re-analysis of the deposited data

Results flagged for a closer look

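Within stages of 4 to 6 animals, single libraries stood apart from the rest by Dixon's criterion in 5 of 40 gene and stage groups, where chance gives about 1 in 20. The genes were measured in the same animals, so the 40 groups are not independent and no excess over chance can be read from them. In NUL, Bhmt was at 1813 CPM in NUL_226 and at 3317 to 3492 CPM in the other 3 libraries, and Ahcy was at 359.7 CPM in the same library against 466.9 to 482 CPM. In ID4, library ID4_211 had 960.1 CPM of Cbs against 759 to 779 CPM, and 434.9 CPM of Cth against 305 to 322 CPM. In ID6, library ID6_201 had 606.3 CPM of Ahcy against 391.5 to 459.8 CPM in the other 5.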

How the results depend on the processing

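Of 415 recomputed log2 fold changes, of the 10 genes' calls and of 2 Ahcy comparisons that did not pass, 337 stayed on the same side of the threshold with the same direction, 72 lost the call, 6 gained it (Ahcy, the one uncalled gene among these) and 0 reversed. The number of genes of the 10 that passed moved as follows. At adjusted p under 0.01 it was 0 for LAC, ID4 and ID6 against NUL and for ID4 against ID2, 2 for ID6 against ID4 and 3 for ID8 against ID6. With the clock score held constant it was 2 for LAC against NUL, 0 for ID2 against NUL, 0 for ID4 against ID2 and 2 for ID6 against ID4. Of all genes that fit called 10.9%, 0.256%, 0.59% and 7.38%. On both TPM scales the number of the 10 was 0 for LAC against NUL and 2 for ID6 against ID4, and with DESeq2 2 and 7. Of all genes log2(TPM + 1) called 8.79% and 10.2% there, and DESeq2 13.2% and 11.2%. For ID6 against NUL the number was 0 without a filter on low counts (0.643% of all genes). It was also 0 there in a fit of only the groups compared (0.841%), which gave 2 for ID4 against ID2 (2.87%). With the number of sequencing runs as a covariate it was 0 for ID4 against ID2 (0.937%). With the title number class it was 0 for ID8 against ID6 (0.037%). Leaving out 1 animal gave 0 to 2 for LAC against NUL and ID4 against NUL, 0 to 1 for ID6 against NUL and ID4 against ID2, 2 to 6 for ID6 against ID4, 1 to 5 for ID8 against ID6 and 2 to 4 for ID2 against NUL. The cause of these changes was not tested. On log2(TPM + 0.1) the median of all genes shifted by 0.11 for ID6 against ID4 and by -0.11 for ID8 against ID6. Of all calls, 45.6% were higher in ID6 than in ID4 on counts and 82.3% on log2(TPM + 1); for ID8 against ID6 these were 57.6% and 16.1%, for LAC against NUL 46.4% and 36.3%, for ID2 against NUL 71.6% and 56.9%, for ID4 against NUL 62.2% and 46.6%, for ID6 against NUL 37.1% and 65.3%, and for ID8 against NUL 72.0% and 46.9%. Among the 78 pathway genes, DESeq2 called 23 for ID2 against NUL and 8 for ID4 against ID2, where edgeR called 14 and 4; of all genes DESeq2 called 5.25% and 3.15%, and edgeR 3.24% and 1.49%. No paired analysis was possible because no title number occurs in more than 1 group. Depth did not limit the 10 genes, whose lowest count was 4940; 3 to 6 animals a group limited precision.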

Other observations

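Within ID4, the 2 animals with title numbers under 200 and the other 2 did not overlap in 6 of the 10 genes, where 38.8% of all 16428 genes did not overlap either. Gnmt was at 1225 and 1338 CPM against 1763 and 1832 CPM, Ahcy at 434 and 512 against 680.2 and 764 CPM, and Pemt at 346 and 357 against 379 and 404 CPM. Shmt1 was at 223.9 and 253 against 261.4 and 264 CPM, and Cbs at 759 and 775 against 779 and 960.1 CPM. Chdh ran the other way, at 135.5 and 143 against 114 and 131 CPM. Bhmt, Bhmt2, Mat1a and Cth overlapped between the same animals. With 2 animals on each side these are values only, chosen after they were seen, and what the numbers stand for is not given in the labels.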
